A study of Rattus norvegicus with 16 samples.

Results

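The proteasome genes were followed across 16 Affymetrix Rat230_2 arrays of cultured rat pancreatic islets. Members were all probe sets, the groups of short probes that stand for a transcript, whose only annotated symbol begins with Psma, Psmb, Psmc, Psmd, Psme, Psmf or Psmg and a digit. This gave 60 probe sets for 46 genes, of 31042 probe sets that are not array controls and 14217 genes with a probe set of their own symbol alone. The islets came from male Wistar rats, whose genotype carried no stated change and whose age is not given in the sources used here. After 1 week at 10 mmol/l glucose in RPMI with BSA and no serum, 4 groups of islets spent 18 h in glucose at 2, 5, 10 or 30 mmol/l, with 1000 islets and 1 array for each concentration in each of 4 experiments. Each experiment had its own islet preparation, and arrays that share a replicate number are taken to share the preparation. Islets are mixed tissue, with beta cells beside other endocrine and non-endocrine cells, so a change in bulk RNA can come from fewer cells of a type or from less RNA in each cell, and these cannot be told apart.

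The proteasome is the barrel-shaped protease that breaks down ubiquitin-tagged proteins in the cytosol and nucleus, including proteins sent back from the endoplasmic reticulum. Its 20S core has outer rings of alpha subunits, which gate the entrance, and inner rings of beta subunits, some of which cut peptide bonds. The 19S particle caps the core, with a ring of ATPases that unfold substrates and non-ATPase subunits that bind ubiquitin, remove it or hold the particle together. Other caps (Psme genes) open the core without ubiquitin, interferon-induced beta subunits turn it into the immunoproteasome, and dedicated chaperones build it and are then released or degraded. In beta cells the proteasome is known to work beside a large flow of newly made proinsulin.

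Of the 46 genes, 7 were alpha-ring genes, 6 were constitutive beta-ring genes, 3 were immunoproteasome beta subunits, 6 were 19S ATPases, 11 were 19S non-ATPases, 4 were activators or an inhibitor, and 7 were assembly chaperones. The other 2, Psmc3ip and Psme3ip1, match by name only and code for proteins that are not part of the particle. A further 6 probe sets with proteasome symbols carry several genes' symbols and fall outside the rule, so no value is given for Psmb6, the caspase-like subunit, or Psme3, a nuclear cap. The test covered the brighter 60% of probe sets by mean level, which took in 55 of the 60 members and at least 1 probe set of every gene. Genes with several probe sets (9 of 46) are described by the one with the highest mean unless stated.

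Each value is a signal in the deposited table's scaled units, listed for replicates 1 to 4 in that order. Changes are differences of group means on the log2 scale ± SE with n = 4 arrays per group, and adjusted p-values come from limma over 18625 probe sets, with a call at an adjusted p under 0.05. Islet hormone genes were bright on all arrays: the mean signal of Ins1, an insulin gene, was between 6498 and 9607. Of 8 islet marker genes, 6 rose and 1 fell from 2 to 10 mmol/l (median 0.52), 5 rose and 1, Pdx1, fell from 2 to 30 mmol/l (median 0.41), and 0 were called from 10 to 30 mmol/l (median -0.14). These markers thus moved from 2 to 30 mmol/l, as the members did, and their part in the members' changes was not tested. From 2 to 10 mmol/l 16.4% of members were called higher and 12.7% lower, near the 15.6% and 16.9% of all probe sets. Of the acinar markers 0 of 8 reached the tested level, their summed signal was 64.1 to 126.2 per array, and of 12 leukocyte and macrophage markers 5 were tested. The ratio of the 3 prime to the 5 prime actin probe sets was 1.58 to 1.885 at 2 mmol/l and 1.929 to 2.245 at the other concentrations, so this measure of RNA or labelling moved with every contrast against 2 mmol/l, and its part in them was not tested. The same ratio for Gapdh was 0.716 to 0.852 at 10 mmol/l and 0.823 to 0.933 at 30 mmol/l. It was higher at 30 than at 10 mmol/l in every preparation, and its part in that contrast was not tested. Each concentration was run in the same fluidics module in all 4 runs, so module and concentration cannot be told apart.

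Most core and 19S cap genes were higher at 30 than at 2 mmol/l, while the immunoproteasome gene Psmb9 and the assembly genes Psmg1 and Psmg2 fell from 5 to 10 mmol/l. Over the 4 concentrations, 38 of 55 member probe sets (69.1%) changed by the F-test, beside 41.8% of all probe sets tested. From 2 to 5 mmol/l, 1 member rose and 1 fell (background 1.66% higher and 0.940% lower). With the replicate number as a block, 3 rose and 4 fell (7 called, background 9.87% in either direction). From 5 to 10 mmol/l, 7 rose and 5 fell (background 10.0% higher and 11.1% lower). With the block, 12 rose and 8 fell (20 called, background 31.7% in either direction). The shares without the block, 12.7% and 9.09% of members, lay near the background. Centring each array on its median turned this split to 8 higher and 3 lower, and quantile normalization turned that from 2 to 5 mmol/l to 1 and 2.

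From 10 to 30 mmol/l, 14 of 55 members rose (25.5%) and 0 fell, beside 3.26% higher and 3.56% lower among all probe sets. With the block, 27 rose and 1 fell (background 6.60% and 8.18%). The count of 14 became 8 with quantile normalization, 24 with median centring and 4 in a fit without the trend of variance on level, each with 0 lower. The duct keratin gene Krt7, 1 of 2 tested duct markers, fell in that contrast by 0.30 ± 0.08 (adjusted p = 0.0254), and its part in the members' changes was not tested. From 2 to 30 mmol/l, 28 rose (50.9%) and 4 fell (7.27%), beside 16.3% and 20.6%. From 2 to 10 mmol/l, 9 rose and 7 fell (background 15.6% and 16.9%), and with the block 13 rose and 13 fell (background 20.7% and 21.6%). With median centring, 13 rose and 5 fell in that contrast. Members are bright probe sets, with 36 of 60 in the brightest 10% of the table, and of that 10%, 8.7% were called higher from 10 to 30 mmol/l and 36.0% from 2 to 30 mmol/l. With any 1 array left out, 6 to 16 members rose and 0 fell from 10 to 30 mmol/l. The lowest count of 6 came when replicate 3 at 10 mmol/l, or replicate 1 or replicate 2 at 30 mmol/l, was left out.

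**Figure D1:**
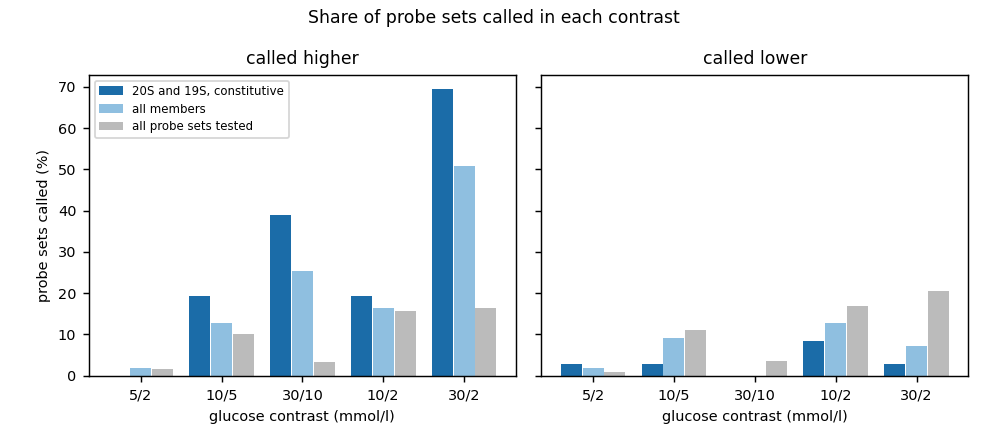
Share of probe sets called higher (left) or lower (right) in each contrast between glucose concentrations, in percent, for constitutive 20S and 19S members (36 probe sets), all tested members (55) and all tested probe sets (18625). From 10 to 30 mmol/l the bar for constitutive members stands at 38.9% and that for all probe sets at 3.26%.

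Within the particle, the 36 probe sets of constitutive 20S and 19S genes had a median change of 0.27 from 10 to 30 mmol/l. The median of all probe sets tested was -0.04 there, and that of the brightest 10% was 0.01. All 36 changes were above 0, from 0.04 to 0.48, and 14 were called (38.9%, beside 3.26% higher among all probe sets). In the 4 preparations taken one at a time, the median was 0.27, 0.35, 0.28 and 0.17. From 2 to 30 mmol/l the median of the 36 was 0.36 (all probe sets -0.03, brightest 10% 0.10), and the medians by preparation were 0.28, 0.45, 0.41 and 0.29. In that contrast 25 were called higher (69.4%) and 1 lower (2.78%). The shares were 16.3% and 20.6% of all probe sets, and 36.0% and 21.8% of the brightest 10%. The largest change from 10 to 30 mmol/l, that of Psmd14, was 1.39-fold. Quantile normalization lowered the medians to 0.21 and 0.29, and centring each array on its median raised them to 0.31 and 0.46. The same centring moved the median of all probe sets by 0.04 from 10 to 30 mmol/l and by 0.10 from 2 to 30 mmol/l.

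**Figure D2:**
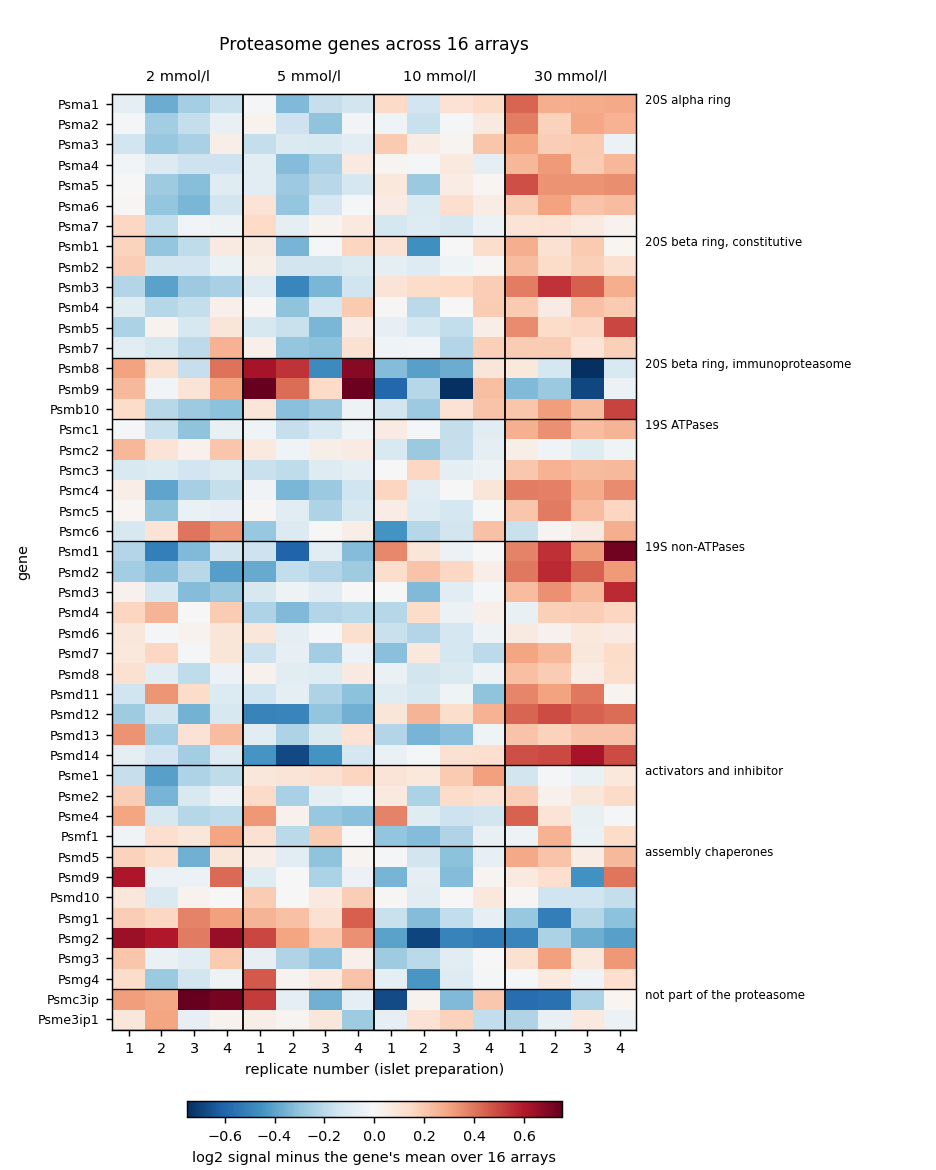
Log2 signal of each of the 46 genes in each array (columns, by glucose concentration and replicate number) minus the gene's own mean over the 16 arrays, with genes grouped by their place in the proteasome. Colours stop deepening at the ends of the bar. Red marks arrays above the gene's mean and blue arrays below it: most core and 19S rows turn red in the 4 columns at 30 mmol/l, and the rows of Psmg1 and Psmg2 are red in all 8 columns at 2 and 5 mmol/l. The row of Psmb9 is red there in all but replicate 2 at 2 mmol/l, and that of Psmb8 in all but replicate 3 at both concentrations.

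Most probe sets of the 19S non-ATPase subunits rose from 2 to 30 mmol/l. Of 15 tested probe sets (11 genes), 8 rose and 0 fell from 10 to 30 mmol/l (all probe sets 3.26% and 3.56%). From 2 to 30 mmol/l, 10 rose and 0 fell (all probe sets 16.3% and 20.6%). From 5 to 10 mmol/l, 6 rose and 0 fell (all probe sets 10.0% and 11.1%). The median change of the 15 was 0.37 from 10 to 30 mmol/l and 0.52 from 2 to 30 mmol/l. Psmd2 codes for a large scaffold subunit that receives ubiquitin-carrying shuttle proteins, and its signal was 1129, 1079, 1171 and 1015 at 2, 1043, 1190.3, 1161 and 1128 at 5, 1482, 1569, 1507 and 1401 at 10 and 1782, 1996, 1839 and 1688 at 30 mmol/l. The arrays at 2 and 5 mmol/l shared 1 range, all arrays at 10 mmol/l were above it, and all at 30 mmol/l were above those at 10 mmol/l. The change was 0.40 ± 0.07 from 5 to 10 mmol/l (adjusted p = 0.000515), 0.29 ± 0.07 from 10 to 30 mmol/l (adjusted p = 0.0174) and 0.73 ± 0.07 from 2 to 30 mmol/l (adjusted p = 3.10e-07).

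Psmd14 codes for the metalloprotease that removes ubiquitin chains from substrates as they enter the particle. Its signal was 664, 630.3, 583 and 652 at 2, 514, 436, 511 and 637 at 5, 673, 693, 756 and 761 at 10 and 975, 984, 1068 and 980.0 at 30 mmol/l. All 4 preparations were lower at 5 than at 2 mmol/l and higher at each step after that, and the arrays at 30 mmol/l lay above all others. The change was -0.28 ± 0.09 from 2 to 5 mmol/l (adjusted p = 0.126, and 0.0356 with the replicate block), 0.47 ± 0.09 from 5 to 10 mmol/l (adjusted p = 0.00141) and 0.48 ± 0.09 from 10 to 30 mmol/l (adjusted p = 0.00471). Both other probe sets of Psmd14 rose as well from 2 to 30 mmol/l, by 0.60 ± 0.10 and 0.80 ± 0.19, against 0.67 ± 0.09 for the first.

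Psmd12, a structural subunit of the lid that holds Psmd14, gave signals of 419.8, 459, 394 and 465 at 2, 357, 359, 411 and 394 at 5, 538, 603, 554 and 604 at 10 and 683, 707, 685 and 675 at 30 mmol/l. The groups at 5, 10 and 30 mmol/l did not overlap, and its 1.51-fold rise from 5 to 10 mmol/l (log2 0.60 ± 0.08, adjusted p = 3.03e-05) was the largest of any member in that contrast. Psmd1, the other large scaffold subunit, had signals of 279.5, 229, 259 and 297 at 2, 293, 215, 307 and 259.9 at 5, 419, 347, 316 and 325 at 10 and 422, 476, 407 and 539 at 30 mmol/l. All arrays at 10 mmol/l lay above those at 5 mmol/l, and from 2 to 30 mmol/l the rise of 0.79 ± 0.13 (adjusted p = 8.77e-05) was the largest among genes at their brightest probe set. Its call from 5 to 10 mmol/l (0.39 ± 0.13, adjusted p = 0.0358) ended when any 1 of 4 arrays was left out, with a highest adjusted p of 0.131 without replicate 2 at 5 mmol/l.

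Psmd4, a ubiquitin receptor of the cap, fell from 2 to 5 mmol/l. Its signal was 915, 977, 820.0 and 935 at 2, 697, 652, 703 and 711 at 5, 706, 903, 793 and 842 at 10 and 789.5, 926, 932 and 917 at 30 mmol/l. All arrays at 5 mmol/l lay below all at 2 mmol/l, those at 10 mmol/l overlapped both groups, and those at 30 mmol/l overlapped the groups at 2 and 10 mmol/l and lay above all at 5 mmol/l. It fell by 0.40 ± 0.08 on the log2 scale from 2 to 5 mmol/l (adjusted p = 0.0220), the only member called lower there, and 4 arrays each ended this call when left out (highest adjusted p = 0.0835 without replicate 2 at 2 mmol/l). From 2 to 30 mmol/l its change of -0.03 ± 0.08 was not called (adjusted p = 0.800).

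Psmd13, another lid subunit, was lowest in the middle: its signal was 345, 227, 294 and 320.4 at 2, 256, 232, 253 and 293 at 5, 234, 214, 219 and 266 at 10 and 316, 307, 317 and 316 at 30 mmol/l. The 4 arrays at 30 mmol/l lay within a few units of each other and above all at 10 mmol/l, while the arrays at 2 mmol/l reached into both ranges. It fell by 0.33 ± 0.12 from 2 to 10 mmol/l (adjusted p = 0.0363) and rose by 0.43 ± 0.12 from 10 to 30 mmol/l (adjusted p = 0.0316). Psmd3, a lid subunit, had signals of 267, 239, 209 and 216 at 2, 241, 254, 247 and 261 at 5, 262, 208, 248 and 259 at 10 and 307, 332, 309 and 385 at 30 mmol/l. Its arrays at 30 mmol/l were above all others, and it rose by 0.45 ± 0.11 from 10 to 30 mmol/l (adjusted p = 0.0146). The remaining genes were the lid subunits Psmd6, Psmd7, Psmd8 and Psmd11, with changes of 0.20 to 0.41 from 10 to 30 mmol/l, of which Psmd7 and Psmd11 were called. The calls from 10 to 30 mmol/l were thin: Psmd13 lost its call when any 1 of 7 arrays was left out (highest adjusted p = 0.0892 without replicate 2 at 10 mmol/l) and Psmd3 without replicate 2 at 10 mmol/l (adjusted p = 0.0526). Psmd7 lost its call when any 1 of 5 arrays was left out (highest 0.0784 without replicate 1 at 10 mmol/l), Psmd11 with any 1 of 4 left out (highest 0.0775 without replicate 3 at 30 mmol/l) and Psmd2 with any 1 of 2 left out (highest 0.0670 without replicate 2 at 30 mmol/l).

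**Figure D3:**
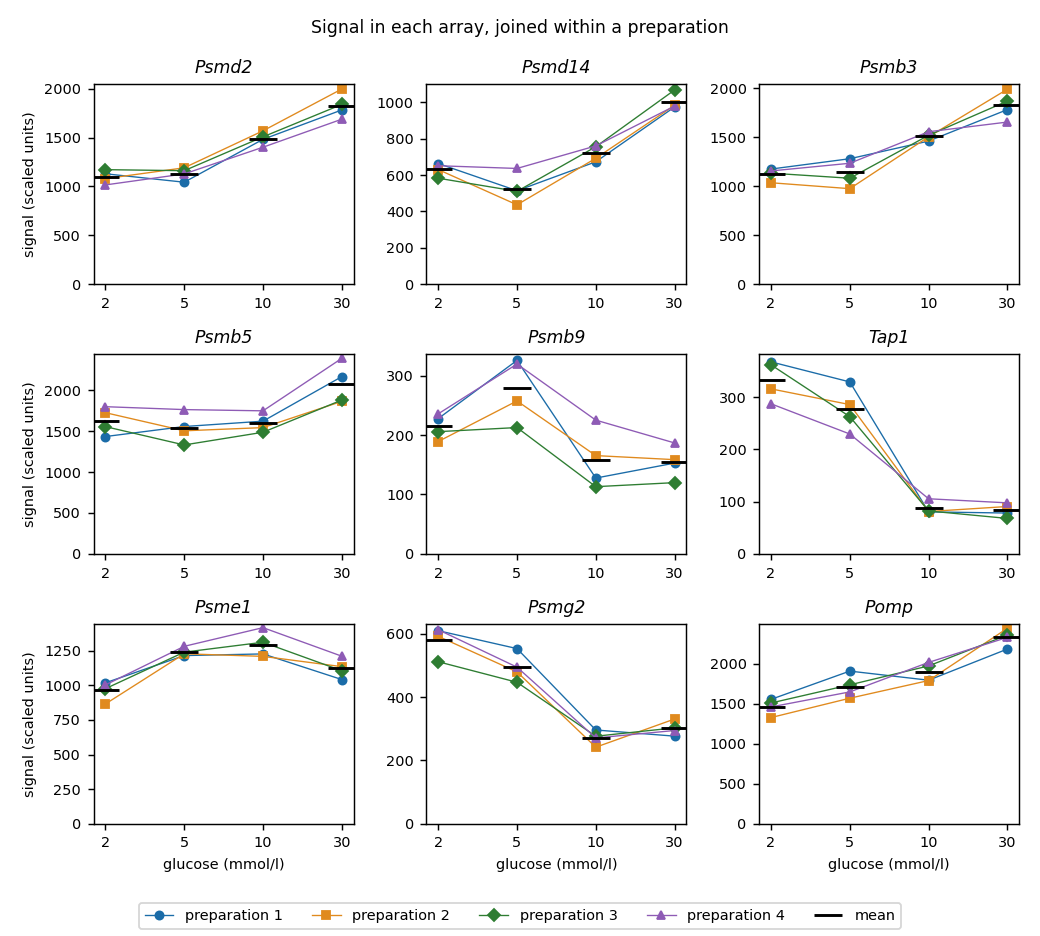
Signal in scaled units (linear axis from 0) of 9 genes at the 4 glucose concentrations, with 1 point per array, lines joining the arrays of 1 preparation and black bars at the mean of 4 arrays. Psmd2, Psmd14, Psmb3 and Pomp climb to their highest means at 30 mmol/l, Psmb5 rises only at the last step, Psme1 peaks at 10 mmol/l, and Psmb9, Tap1 and Psmg2 drop between 5 and 10 mmol/l.

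The ATPase ring of the 19S cap rose in 4 of its 6 genes from 2 to 30 mmol/l and fell in 1. Over its 8 tested probe sets the median change was 0.35, with 5 higher (62.5%) and 1 lower (12.5%), beside 16.3% and 20.6% of all probe sets. From 10 to 30 mmol/l the median was 0.26, with 3 higher (37.5%) and 0 lower, beside 3.26% and 3.56%. With the replicate block 4 were higher and 0 lower there (all probe sets 6.60% and 8.18%). Psmc4, an ATPase of this unfolding ring, had signals of 709, 522, 577 and 605 at 2, 674, 539.9, 565 and 617 at 5, 767, 650.0, 687 and 730.1 at 10 and 894, 892, 831 and 876 at 30 mmol/l. All arrays at 30 mmol/l were above all others, and the rise of 0.54 ± 0.09 from 2 to 30 mmol/l (adjusted p = 0.000167) was the largest of the class at the brightest probe set. Psmc1, Psmc3 and Psmc5, other ATPases of the ring, rose by 0.41 ± 0.08, 0.35 ± 0.07 and 0.35 ± 0.08. From 10 to 30 mmol/l only these 3 of the 6 genes were called, and Psmc4 was not. The changes were 0.33 ± 0.08 for Psmc1 (adjusted p = 0.0145), 0.22 ± 0.07 for Psmc3 (adjusted p = 0.0487) and 0.29 ± 0.08 for Psmc5 (adjusted p = 0.0376). Psmc3 lost that call when any 1 of 15 arrays was left out (highest adjusted p = 0.138 without replicate 3 at 10 mmol/l), Psmc5 with any 1 of 6 left out (highest 0.125 without replicate 2 at 30 mmol/l) and Psmc1 without replicate 3 at 10 mmol/l (adjusted p = 0.0537).

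Psmc2, of the same ring, fell from 2 to 10 mmol/l. Its signal was 3148, 2839, 2704 and 3058 at 2, 2788, 2585, 2733 and 2759 at 5, 2446, 2184, 2347 and 2520.0 at 10 and 2734, 2602, 2489 and 2586 at 30 mmol/l. The arrays at 10 mmol/l were all below those at 2 and 5 mmol/l, and the arrays at 30 mmol/l overlapped with both sides. It fell by 0.31 ± 0.06 from 2 to 10 mmol/l (adjusted p = 0.00119), lower in 4 of 4 preparations, and by 0.17 ± 0.06 from 2 to 30 mmol/l (adjusted p = 0.0425). The call from 2 to 30 mmol/l ended when any 1 of 7 arrays was left out (highest adjusted p = 0.129 without replicate 1 at 2 mmol/l) and with median centring. Psmc6, the last ATPase of the ring, had 3 tested probe sets that did not agree: from 2 to 10 mmol/l the brightest changed by -0.33 ± 0.14 (adjusted p = 0.0761) and the dimmest by 0.44 ± 0.20 (adjusted p = 0.0985). With the replicate block both passed, in opposite directions, at adjusted p = 0.000876 and 0.0484, so no direction is given for the gene.

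The alpha ring of the core rose in 6 of 7 genes (85.7%) from 2 to 30 mmol/l, with a median of 0.41 and 0 called lower. Of all probe sets 16.3% were called higher and 20.6% lower in that contrast. Psma5, a gate-ring subunit, had signals of 918, 761, 734 and 860.4 at 2, 866, 758, 793 and 839 at 5, 969.5, 757, 955 and 926 at 10 and 1285, 1160.1, 1157 and 1166 at 30 mmol/l. Its arrays at 2, 5 and 10 mmol/l overlapped and all 4 at 30 mmol/l were above them, with a rise of 0.41 ± 0.09 from 10 to 30 mmol/l (adjusted p = 0.00995). Psma1 had signals of 1504, 1220.4, 1325 and 1408 at 2, 1563, 1256, 1401 and 1436 at 5, 1747, 1431, 1704 and 1746 at 10 and 2136, 1911, 1919 and 1921 at 30 mmol/l. Replicate 2 was the lowest array at each concentration, and within every preparation the signal was higher at each step from 2 to 30 mmol/l. The change was 0.53 ± 0.09 over the whole range (adjusted p = 7.80e-05), and 0.28 ± 0.09 from 2 to 10 mmol/l (adjusted p = 0.0173, or 0.0654 without replicate 2 at 2 mmol/l).

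From 10 to 30 mmol/l only Psma2 and Psma5 of this ring were called, with 0.31 ± 0.08 for Psma2 (adjusted p = 0.0273), and this call of Psma2 ended when any 1 of 5 arrays was left out (highest adjusted p = 0.0885 without replicate 2 at 10 mmol/l). With the replicate block Psma1 and Psma4 passed as well, at adjusted p = 0.00315 and 0.0325. Psma3, Psma4 and Psma6 rose by 0.32 ± 0.09, 0.36 ± 0.08 and 0.42 ± 0.09 from 2 to 30 mmol/l. Psma7 was the exception in this ring. Its signal was 1620.2, 1282, 1438 and 1419 at 2, 1616, 1385, 1483 and 1529.9 at 5, 1329, 1360.4, 1341 and 1412 at 10 and 1567, 1572, 1533 and 1486 at 30 mmol/l, and all 4 groups overlapped except 30 with 10 mmol/l. Its change from 2 to 30 mmol/l was 0.10 ± 0.07 (adjusted p = 0.291).

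Among constitutive beta-ring genes, 4 of 6 rose from 2 to 30 mmol/l (66.7%) and 0 fell, beside 16.3% and 20.6% of all probe sets. Their median change was 0.24 and went to 0.05 under quantile normalization. From 2 to 10 mmol/l that median was 0.01, and -0.14 under quantile normalization. Psmb3, a structural beta subunit without a cutting site, had signals of 1174, 1034, 1132 and 1155 at 2, 1279.6, 974, 1081 and 1233 at 5, 1459.7, 1504, 1519 and 1555 at 10 and 1781, 1989, 1868 and 1654 at 30 mmol/l. The arrays at 2 and 5 mmol/l overlapped, and those at 10 and at 30 mmol/l each stood clear above the group before. It rose by 0.41 ± 0.08 from 5 to 10 mmol/l (adjusted p = 0.00159) and by 0.70 ± 0.08 from 2 to 30 mmol/l (adjusted p = 3.56e-06), higher in 4 of 4 preparations. From 10 to 30 mmol/l its change was not called without the block, where only Psmb5 of these genes was.

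Psmb5 carries the chymotrypsin-like site, the target of proteasome inhibitor drugs, and its signal was 1435, 1727, 1556 and 1800.0 at 2, 1557, 1505, 1332 and 1765 at 5, 1623, 1544, 1487 and 1749 at 10 and 2167, 1865, 1881 and 2391 at 30 mmol/l. The groups at 2, 5 and 10 mmol/l covered 1 range, and all arrays at 30 mmol/l were above it. The rise from 10 to 30 mmol/l was 0.37 ± 0.10 (adjusted p = 0.0291), and 5 arrays each ended this call when left out (highest adjusted p = 0.0919 without replicate 4 at 30 mmol/l), as did quantile normalization. Psmb7 carries the trypsin-like site, with signals of 904, 878, 834 and 1143 at 2, 979.9, 779.6, 772 and 1032 at 5, 936, 941, 817 and 1077 at 10 and 1089.9, 1089.8, 1022 and 1078 at 30 mmol/l. Its groups overlapped, and the change from 2 to 30 mmol/l of 0.20 ± 0.11 was not called (adjusted p = 0.181), though it was with the block (0.0328). Psmb1, Psmb2 and Psmb4 changed by 0.21 ± 0.13, 0.20 ± 0.07 and 0.28 ± 0.10 from 2 to 30 mmol/l, and Psmb1 was called only with the replicate block. Psmb2 and Psmb4 were called without it (adjusted p = 0.0367 and 0.0311). Under quantile normalization those 2 changes turned to -0.02 and -0.03, and each call ended when any 1 of 6 arrays was left out, with a highest adjusted p of 0.112 for Psmb2 (without replicate 3 at 2 mmol/l) and 0.0875 for Psmb4 (without replicate 2 at 2 mmol/l).

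Nrf1, the product of Nfe2l1, is known in human and mouse cells to raise proteasome genes through antioxidant response elements when proteasome capacity is short. The promoter of Psmb5 is shown because it holds such a motif and the gene rose from 10 to 30 mmol/l. It runs from 250 bases before to 50 after the annotated start in RefSeq (build GRCr8), 5′ to 3′ on the gene's strand, with the match to TGACNNNGC in capitals.
Psmb5 chr15:32047330-32047629, minus strand: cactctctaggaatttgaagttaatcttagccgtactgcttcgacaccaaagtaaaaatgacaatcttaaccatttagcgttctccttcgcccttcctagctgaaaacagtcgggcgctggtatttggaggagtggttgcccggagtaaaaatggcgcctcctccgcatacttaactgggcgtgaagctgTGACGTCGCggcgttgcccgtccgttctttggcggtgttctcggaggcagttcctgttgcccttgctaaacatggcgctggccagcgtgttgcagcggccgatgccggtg

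The motif, sought on both strands, occurred in 7 of 42 member genes with a promoter entry (16.7%) and in 12.1% of all 33469 promoters of that table, a share near that of the members. The member genes with it were Psma3, Psmb2, Psmb5, Psmd1, Psmd3, Psmd9 and Psme4. Nfe2l1 itself was lower at 30 mmol/l, with a signal of 405 ± 30.6 against 527 ± 59.0 at 2 mmol/l (SD, n = 4; log2 change -0.38 ± 0.09, adjusted p = 0.00261).

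**Figure D4:**
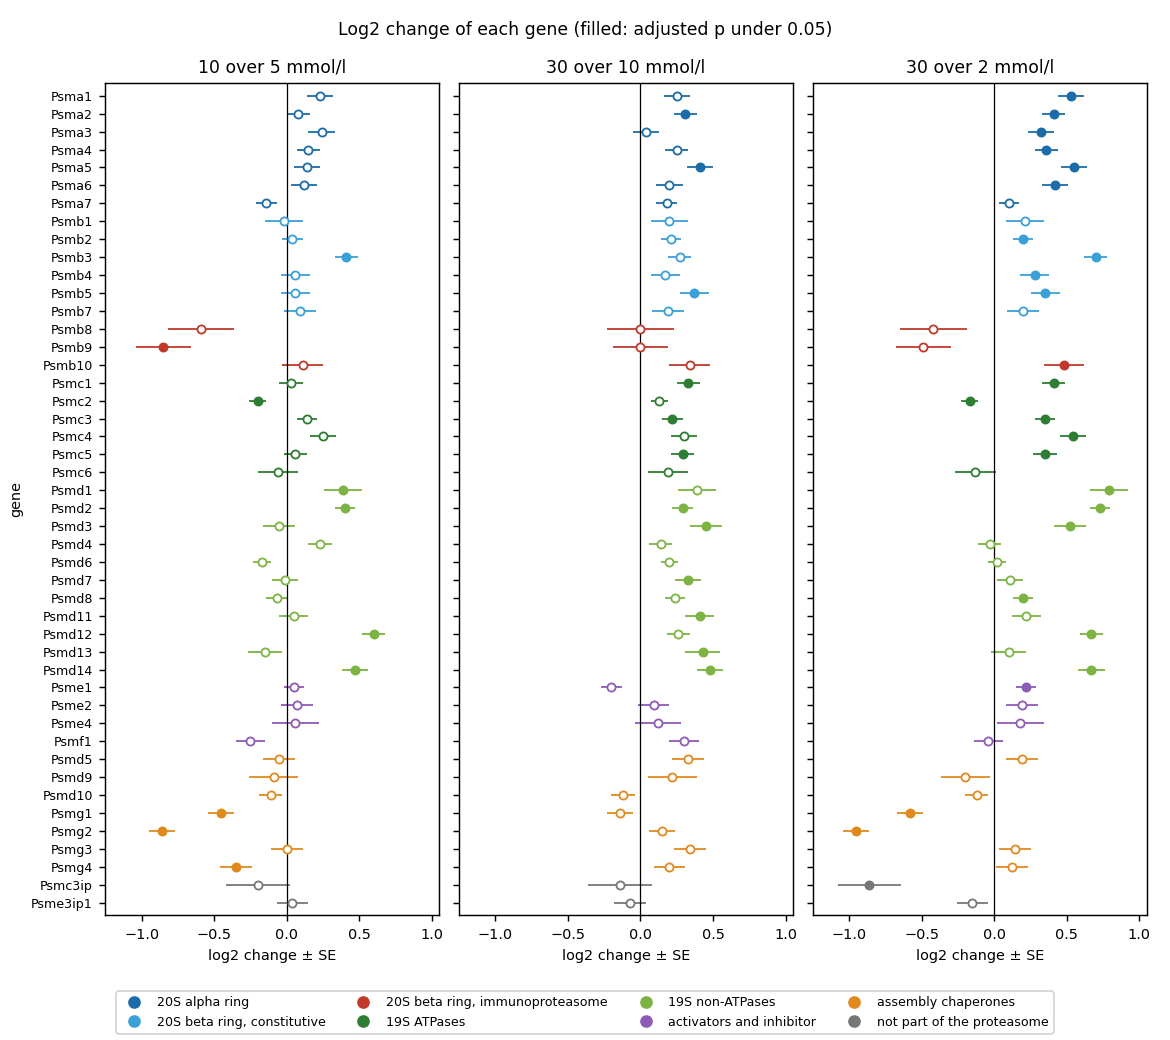
Log2 change ± SE of each of the 46 genes from 5 to 10, 10 to 30 and 2 to 30 mmol/l (n = 4 arrays per group), coloured by place in the proteasome, with filled circles at an adjusted p under 0.05. In the middle panel core and 19S genes lie to the right of 0, and in the left panel Psmb9, Psmb8 and Psmg2 lie farthest to the left.

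Of the 3 immunoproteasome genes, Psmb9 fell from 5 to 10 mmol/l and Psmb10 rose from 2 to 30 mmol/l. With the replicate block, Psmb8 and Psmb9 were also called lower from 2 to 10 and from 2 to 30 mmol/l. Psmb9, an interferon-induced beta subunit that can replace Psmb6, had signals of 228, 189, 206 and 236 at 2, 326, 257, 213 and 319.5 at 5, 128, 165, 113 and 225 at 10 and 153, 159, 119.9 and 187 at 30 mmol/l. It was highest at 5 mmol/l in all 4 preparations and fell from 5 to 10 mmol/l in each, although replicate 4 at 10 mmol/l stayed above replicate 3 at 5 mmol/l. The fall was 0.85 ± 0.19 on the log2 scale (adjusted p = 0.00333), and from 10 to 30 mmol/l the change was 0.00 ± 0.19.

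Psmb8, which can take the place of Psmb5, had signals of 194, 170.2, 139 and 208 at 2, 241, 228, 113 and 252 at 5, 125, 119, 121 and 167 at 10 and 166, 143, 88.0 and 145 at 30 mmol/l. Replicate 3 at 5 mmol/l was far below the other arrays of its group, and 3 of 4 preparations were lower at 10 than at 5 mmol/l. The change of -0.59 ± 0.23 was not called (adjusted p = 0.0795) and was with the replicate block (0.00366), and without replicate 3 at 5 mmol/l it was -0.87 (adjusted p = 0.00405). Psmb10, which can replace Psmb7, moved the other way, with signals of 181, 142, 136 and 133 at 2, 175, 132, 136 and 159.8 at 5, 149.5, 136, 177 and 191 at 10 and 190.0, 204, 193 and 233 at 30 mmol/l. Its arrays at 30 mmol/l overlapped those at 10 mmol/l by 1 array and lay above all at 2 mmol/l, a rise of 0.48 ± 0.14 (adjusted p = 0.0101).

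Psmb8 and Psmb9 lie in the major histocompatibility complex on chromosome 20 (GRCr8), next to the peptide transporter genes Tap1 and Tap2. The annotated ends of Tap1 and Psmb9 are 408 bases apart, those of Psmb8 and Tap1 1121 and those of Tap2 and Psmb8 1771, while Psmb10 is on chromosome 19. Tap1, which carries proteasome peptides into the endoplasmic reticulum, had signals of 368, 316, 362 and 287 at 2, 329, 286, 263 and 229.5 at 5, 80.4, 81.1, 82.2 and 106 at 10 and 78.2, 90.7, 67.9 and 97.7 at 30 mmol/l. Every array at 10 and 30 mmol/l was below every array at 2 and 5 mmol/l, and the fall from 5 to 10 mmol/l was 1.66 ± 0.14 (adjusted p = 2.63e-07). Tap2 fell by 1.02 ± 0.27 (adjusted p = 0.0104), Tapbp, which links the transporter to class I molecules, by 0.49 ± 0.15 (adjusted p = 0.0249) and the interferon regulator Irf1 by 0.36 ± 0.10 (adjusted p = 0.0169). B2m, the light chain of class I molecules, rose by 0.30 ± 0.08 in the same contrast (adjusted p = 0.00745). Pdia3 and Canx are an oxidoreductase and a lectin of the endoplasmic reticulum that help class I molecules fold. From 5 to 10 mmol/l Pdia3 rose by 0.44 ± 0.09 (adjusted p = 0.00131) and Canx was not called (0.16 ± 0.08, adjusted p = 0.170). From 2 to 30 mmol/l Pdia3 changed by 0.53 ± 0.09 (adjusted p = 8.55e-05) and Canx by 0.38 ± 0.08 (adjusted p = 0.000753). Of 15 tested genes of antigen presentation and interferon response, 2 rose and 4 fell from 5 to 10 mmol/l (all probe sets 10.0% and 11.1%), with a median of -0.10. The summed signal of the 12 leukocyte and macrophage markers was 431.5 to 559.9 at 5 mmol/l and 511 to 742 at 10 mmol/l. The largest part of that sum was Cd74, with 109.2 to 237.9 at 5 and 212.1 to 371.2 at 10 mmol/l. Of the 5 tested genes of that list, 1, Fcer1g, rose from 5 to 10 mmol/l while 0 fell.

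In human and mouse cells, interferon factors are known to act on these genes through interferon-stimulated response elements. The promoters of the 3 genes are shown to compare that motif, sought as 2 copies of GAAA with 2 bases between them on either strand, in capitals (RefSeq, GRCr8, 5′ to 3′ on the gene's strand; capitals in Psmb8 are the match on the other strand).
Psmb8 chr20:4656982-4657281, minus strand: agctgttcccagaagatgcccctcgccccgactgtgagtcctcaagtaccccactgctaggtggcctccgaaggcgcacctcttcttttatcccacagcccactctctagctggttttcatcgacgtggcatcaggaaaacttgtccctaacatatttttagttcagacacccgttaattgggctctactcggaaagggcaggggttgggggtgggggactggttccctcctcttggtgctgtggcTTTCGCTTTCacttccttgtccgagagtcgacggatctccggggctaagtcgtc
Psmb9 chr20:4668750-4669049, plus strand: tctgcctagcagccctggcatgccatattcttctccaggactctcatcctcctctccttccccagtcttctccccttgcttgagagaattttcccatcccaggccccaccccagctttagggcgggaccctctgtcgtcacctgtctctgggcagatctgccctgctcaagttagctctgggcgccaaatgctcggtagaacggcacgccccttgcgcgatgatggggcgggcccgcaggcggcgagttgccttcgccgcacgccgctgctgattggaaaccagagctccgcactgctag
Psmb10 chr19:50743243-50743542, minus strand: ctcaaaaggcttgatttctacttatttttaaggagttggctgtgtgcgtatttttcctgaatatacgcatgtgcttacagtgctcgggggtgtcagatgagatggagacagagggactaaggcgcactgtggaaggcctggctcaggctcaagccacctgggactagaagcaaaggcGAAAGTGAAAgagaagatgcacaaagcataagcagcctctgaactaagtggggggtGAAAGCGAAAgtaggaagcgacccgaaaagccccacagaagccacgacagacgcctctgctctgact

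Psmb10 held the motif 2 times, Psmb8 1 time and Psmb9 not in this window, and the motif was in 7 of 42 member promoters (16.7%) and 3.92% of all promoters. The others with it were Psma4, Psmb3, Psmd7, Psme2 and Psmg4.

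Among the activator genes, Psme1 rose from 2 to 5 mmol/l and Psmf1 fell from 2 to 10 mmol/l. Psme1, a subunit of the interferon-inducible cap, had signals of 1018, 866, 976 and 1003 at 2, 1215, 1228, 1240.2 and 1282 at 5, 1228, 1209.8, 1312 and 1417 at 10 and 1042, 1136, 1106 and 1211 at 30 mmol/l. All arrays at the 3 higher concentrations lay above all at 2 mmol/l, and the highest mean was at 10 mmol/l. It rose by 0.36 ± 0.07 from 2 to 5 mmol/l (adjusted p = 0.0154, or 0.0669 without replicate 2 at 2 mmol/l), the only member called higher there, and by 0.42 ± 0.07 from 2 to 10 mmol/l (adjusted p = 0.000229). From 10 to 30 mmol/l its change of -0.20 ± 0.07 was not called (adjusted p = 0.115) and passed with the block (0.0279), the 1 member called lower there.

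Psme2 codes for the partner of Psme1 in that cap and lies 6602 bases from it on chromosome 15. Its signal was 728, 502, 591 and 620.4 at 2, 709, 541, 611 and 626 at 5, 673, 544, 706 and 692 at 10 and 727, 656, 678 and 707 at 30 mmol/l. The groups overlapped, and the largest change, 0.19 ± 0.11 from 2 to 30 mmol/l, was not called (adjusted p = 0.191, or 0.0319 with the block). Psmf1, an inhibitor of the core in the test tube, was lowest at 10 mmol/l, with signals of 609, 676, 658 and 761 at 2, 672, 539, 708 and 622 at 5, 505, 494, 529 and 596 at 10 and 603, 743, 598 and 682 at 30 mmol/l. All arrays at 10 mmol/l were below all at 2 mmol/l and all at 30 mmol/l. It fell by 0.35 ± 0.10 from 2 to 10 mmol/l (adjusted p = 0.0132, or 0.0524 without replicate 4 at 2 mmol/l), and the change of 0.30 ± 0.10 from 10 to 30 mmol/l passed only with the block (adjusted p = 0.0821 and 0.0322).

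Psme4, a large nuclear cap, had signals of 508, 380.0, 357 and 361 at 2, 518, 422, 339 and 332 at 5, 535, 387, 371 and 376 at 10 and 562, 444, 398 and 409.8 at 30 mmol/l at its brightest probe set, with replicate 1 highest at every concentration. That probe set changed by 0.18 ± 0.16 from 2 to 30 mmol/l (adjusted p = 0.423, or 0.0400 with the block). A dimmer probe set of the gene rose by 0.79 ± 0.15 (adjusted p = 0.000421) and already by 0.75 ± 0.15 from 2 to 10 mmol/l (adjusted p = 0.000801). The middle one changed by 0.19 ± 0.18 and was not called (adjusted p = 0.429).

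Of the assembly chaperone genes, Psmg1, Psmg2 and Psmg4 fell from 5 to 10 mmol/l. Of 8 tested probe sets, 0 rose and 3 fell there (37.5% lower, all probe sets 11.1%). From 2 to 30 mmol/l 0 rose and 2 fell (25.0% lower, near the 20.6% of all probe sets). From 10 to 30 mmol/l 0 were called, and 2 rose with the block (all probe sets 6.60% higher with the block). Psmg2 showed the largest change of all members. Its product pairs with that of Psmg1 to start the alpha ring, and its signal was 609.8, 592, 512 and 613 at 2, 553, 479.6, 447 and 495 at 5, 296, 242, 276 and 271 at 10 and 277, 331, 303 and 294 at 30 mmol/l. All arrays at 10 and 30 mmol/l were below all at 2 and 5 mmol/l. It fell by 0.86 ± 0.09 from 5 to 10 mmol/l (adjusted p = 3.72e-06) and by 0.95 ± 0.09 from 2 to 30 mmol/l (adjusted p = 4.07e-07), with no call from 10 to 30 mmol/l (0.15 ± 0.09, adjusted p = 0.403).

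Psmg1, its partner, had signals of 600.4, 588, 685 and 655 at 2, 632, 617, 572 and 723 at 5, 471, 422, 465 and 506 at 10 and 434, 369.8, 456 and 428 at 30 mmol/l. Again the arrays split between 5 and 10 mmol/l with no overlap, with a fall of 0.45 ± 0.09 there (adjusted p = 0.00176) and of 0.58 ± 0.09 from 2 to 30 mmol/l (adjusted p = 6.62e-05). Psmg4, part of another chaperone pair, fell by 0.35 ± 0.11 from 5 to 10 mmol/l (adjusted p = 0.0314), a call that ended when any 1 of 3 arrays was left out (highest adjusted p = 0.116 without replicate 2 at 10 mmol/l) and with median centring. Psmg3, the other member of that pair, changed by -0.00 ± 0.11 there, and by 0.34 ± 0.11 from 10 to 30 mmol/l (adjusted p = 0.0669, or 0.0168 with the block).

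Genes of the chaperones of the 19S ATPase ring were not called in any contrast. Psmd10, also studied as an oncoprotein, had signals of 459, 401, 440.1 and 432 at 2, 493, 432, 454 and 492 at 5, 434, 409.5, 431 and 457 at 10 and 434, 389, 389.8 and 382 at 30 mmol/l. Its groups overlapped in every contrast, and no change was called (adjusted p = 0.256 from 2 to 30 mmol/l). Psmd5 changed by 0.33 ± 0.11 from 10 to 30 mmol/l (adjusted p = 0.0929, or 0.00222 with the block). Psmd9 had signals of 224, 143, 143 and 198 at 2, 138, 148, 125 and 143 at 5, 116, 140.4, 118 and 149.6 at 10 and 155, 161, 108 and 195 at 30 mmol/l, and its groups overlapped in all contrasts. From 2 to 10 mmol/l it changed by -0.42 ± 0.17 at this probe set and by 0.56 ± 0.24 at a dimmer one. Neither was called (adjusted p = 0.0761 and 0.0883), and both passed with the block in opposite directions (0.0184 and 0.0395).

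For Psmd11 the brightest probe set changed by 0.22 ± 0.10 from 2 to 30 mmol/l (adjusted p = 0.115) and the next rose by 0.58 ± 0.08 (adjusted p = 1.00e-05). From 2 to 10 mmol/l these 2 pointed apart, with -0.19 ± 0.10 (adjusted p = 0.177, or 0.0433 with the block) against 0.34 ± 0.08 (adjusted p = 0.00212). Both probe sets of Psmd7 rose from 10 to 30 mmol/l, by 0.33 ± 0.09 and 0.42 ± 0.11. The 5 members below the tested level were the dimmer probe sets of Psmb5, Psmc4, Psmd11 and Psme1, with group means of at most 31.3.

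Of the name matches, Psmc3ip codes for a partner of the recombinases of meiosis and had signals of 89.1, 87.8, 123 and 118 at 2, 103, 68.6, 55.9 and 68.2 at 5, 45.1, 73.1, 57.2 and 82.5 at 10 and 48.3, 48.7, 61.3 and 72.5 at 30 mmol/l. The arrays at 2 mmol/l lay above all at 10 and 30 mmol/l, and it fell by 0.86 ± 0.22 from 2 to 30 mmol/l (adjusted p = 0.00485). Psme3ip1, whose product binds the Psme3 cap, changed by -0.15 ± 0.11 in that contrast and was not called (adjusted p = 0.336).

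Genes that work with the particle were read from 3 lists. Of 11 tested genes of proteasome maturation and its regulators, 9 changed by the F-test (all probe sets 41.8%). From 2 to 30 mmol/l 4 were higher and 5 lower (all probe sets 16.3% and 20.6%). Pomp, the maturation factor that helps the beta rings form, had signals of 1553, 1326, 1508 and 1458 at 2, 1906, 1567, 1734 and 1646 at 5, 1792, 1788, 1971 and 2015 at 10 and 2182, 2441, 2356 and 2328 at 30 mmol/l. Every array at 30 mmol/l was above every array below it, with a rise of 0.30 ± 0.07 from 10 to 30 mmol/l (adjusted p = 0.0189). Vcp, the ATPase that extracts ubiquitin-tagged proteins and hands them to the proteasome, rose by 0.47 ± 0.08 from 5 to 10 mmol/l (adjusted p = 0.000478), and its cofactor Nploc4 rose by 0.37 ± 0.10 from 10 to 30 mmol/l (adjusted p = 0.0286). Ngly1, which cuts sugars from Nrf1 on its way to the nucleus, fell by 0.35 ± 0.07 from 5 to 10 mmol/l (adjusted p = 0.00141), and so did Nfe2l2, the oxidative stress factor, by 0.53 ± 0.09 (adjusted p = 0.000344).

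Of 17 tested ubiquitin receptors and proteasome-associated genes, 3 rose and 0 fell from 10 to 30 mmol/l (all probe sets 3.26% and 3.56%), with a median of 0.11. The 3 were Zfand2a, a stress-induced zinc finger protein that binds the particle (0.58 ± 0.13), the shuttle Rad23b (0.27 ± 0.06) and the thioredoxin-like Txnl1 (0.27 ± 0.07). Zfand2a had fallen by 0.56 ± 0.13 from 2 to 5 mmol/l (adjusted p = 0.0306). Ube3a, a ubiquitin ligase that binds the particle, changed by -0.48 ± 0.11 (adjusted p = 0.00195) from 2 to 30 mmol/l, and Zfand2b, a relative of Zfand2a, by -0.41 ± 0.16 (adjusted p = 0.0577). Of 10 tested genes of ubiquitin-activating and conjugating enzymes, 3 rose and 3 fell from 2 to 30 mmol/l (all probe sets 16.3% and 20.6%). Genes for ubiquitin itself were not among them. Uba1, the main ubiquitin-activating enzyme, rose by 0.50 ± 0.15 from 5 to 10 mmol/l (adjusted p = 0.0267). Ube2j1, a conjugating enzyme of the endoplasmic reticulum, fell by 1.10 ± 0.12 there (adjusted p = 3.60e-06) and rose by 0.53 ± 0.12 from 10 to 30 mmol/l (adjusted p = 0.0111). The conjugating enzymes Ube2g2 and Ube2d2 changed by 0.46 ± 0.10 (adjusted p = 0.00114) and -0.47 ± 0.18 (adjusted p = 0.0493) from 2 to 30 mmol/l.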

How the data were processed

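RNA of cultured rat islets was hybridised to 16 one-colour arrays, 4 for each glucose concentration. The deposited signal intensities are linear values made by the authors with GCOS, Affymetrix's array software, per the submitters' processing notes (version and settings not given in the sources used here). The mean of each array after trimming 2% is the same, so the arrays were already scaled. Array depth has no count, and the number of arrays limits the precision.

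From these, 57 control probe sets of 31099 were left out, values under 3.4, the 10th percentile, were raised to it, and log2 was taken. The upper 60% by mean level, 18625 of 31042 probe sets, were tested. Gene names come from the platform annotation (20826 probe sets with 1 symbol, 436 with several, 9780 with none). limma 3.58.1 in R 4.3.3 (lmFit, eBayes with trend, 12 residual degrees of freedom) fitted the 4 group means on all arrays, with two-sided tests for 5 contrasts and an F-test, Benjamini-Hochberg adjustment and a threshold of 0.05. The procedure was tested on simulated data.

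Replicate numbers were taken to mark the islet preparations that the series' text describes. After removing group means, arrays sharing a number correlated at 0.136 to 0.434 (24 pairs) and others at -0.444 to 0.13 (96 pairs), and 16 of 16 arrays matched their own number best. A fit with the number as a block (9 residual degrees of freedom) is printed for part of the results that it changes. It added 40 calls of single member genes, so a change given as not called can be called with it. The run files give 3 scan days and 2 chip lots, each holding all 4 groups. Other alternatives were quantile normalization, median centring of each array, a wider and a stricter level filter, adding 50 before log2 in place of the minimum, eBayes with no trend, only the groups compared, and each array left out.

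Values of all arrays are given for the 2 members per class with the smallest F-test p, the 3 largest called increases and decreases per contrast whose groups do not overlap, and a set of well-known genes, and up to 4 genes per list of partner genes are named by F-test p. Tap2, Tapbp, Irf1, Fcer1g, Nfe2l1, Nploc4 and Rad23b fall outside this rule and were chosen after their values were seen. Members and gene lists were chosen with earlier results of these data known. Promoters and positions come from RefSeq (GRCr8).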

Additional observations from a re-analysis of the deposited data

Results flagged for a closer look

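Of 184 groups of 4 arrays examined for the members at their brightest probe set, 14 held an array that stood apart from the other 3 by Dixon's test, where chance marks about 1 in 20 groups. Of these, 8 were at 30 mmol/l, where replicate 1 stood apart in 4 genes. It was high for Psma1 at 2135.5 (others 1911.1 to 1920.8), for Psma5 at 1284.7 (others 1156.7 to 1165.8) and for Psmd10 at 434.2 (others 382.3 to 389.8), and low for Psmd4 at 789.5 (others 917.1 to 932.2). Replicate 2 at 30 mmol/l was low for Psmb4 at 2847.4 (others 3131.4 to 3178.1) and for Psmd13 at 306.6 (others 315.9 to 316.5). Replicate 3 at 30 mmol/l was high for Psmd14 at 1068.4 (others 974.9 to 984.1) and low for Psmb7 at 1022.1 (others 1078.3 to 1089.9).

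At 10 mmol/l, replicate 1 was high for Psme4 at 534.6 (others 371.1 to 387.3), replicate 2 was low for Psma1 at 1430.9 (others 1703.8 to 1747.3), and replicate 4 was high for Psmb8 at 167.2 (others 118.5 to 125.1). At 5 mmol/l, replicate 1 was high for Psmb2 at 1707.4 (others 1501.5 to 1533.7) and replicate 3 was low for Psmb8 at 112.7 (others 228.3 to 252.3). At 2 mmol/l, replicate 3 was low for Psmd5 at 455.5 (others 622.5 to 658.6). The low array of Psmb8 at 5 mmol/l also lay below all arrays at 10 mmol/l.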

How the results depend on the processing

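The replicate block, which sets arrays of 1 preparation against each other, kept all 64 calls of single member genes and added 40, and it changed no other call. It gave 3 higher and 4 lower from 2 to 5 mmol/l, 12 and 8 from 5 to 10 mmol/l, 27 and 1 from 10 to 30 mmol/l, and 13 lower from 2 to 10 mmol/l, where the fit without it gave 1 and 1, 7 and 5, 14 and 0, and 7. The scan day as a block gave 2 and 2, 12 higher, 27 and 1, and 11 lower in the same order. The chip lot as a block gave 2 higher from 2 to 5 mmol/l, 11 higher from 5 to 10 mmol/l and 22 higher from 10 to 30 mmol/l. These 2 blocks kept 64 of 64 calls each, log2 of the value plus 50 kept 63, and the stricter filter 62 of 62. Median centring kept 59, with 3 lower from 5 to 10 mmol/l and 24 higher from 10 to 30 mmol/l. Quantile normalization kept 50, with 2 lower from 2 to 5 mmol/l and 8 higher from 10 to 30 mmol/l. It turned the changes from 2 to 30 mmol/l of Psmb2 to -0.02 and of Psmb4 to -0.03. Without a level filter 54 calls stayed, with 3 lower from 5 to 10 mmol/l. With only the groups compared 50 stayed and without the trend 45, both giving 0 higher and 0 lower from 2 to 5 mmol/l and 3 lower from 5 to 10 mmol/l, and the fit without the trend gave 4 higher from 10 to 30 mmol/l. Shares of all probe sets called are given above for the fit without a block and with the replicate block only. Member counts under the other settings, and under those changed together below, are thus not set against all probe sets. The causes were not tested.

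With 1 array left out, 53 to 61 calls stayed. The F-test count was 33 to 39. Counts higher and lower were 0 to 1 and 0 to 2 from 2 to 5 mmol/l, 6 to 10 and 3 to 7 from 5 to 10 mmol/l, 6 to 16 and 0 to 0 from 10 to 30 mmol/l, 6 to 12 and 3 to 9 from 2 to 10 mmol/l, and 25 to 28 and 3 to 5 from 2 to 30 mmol/l. The count of 14 higher from 10 to 30 mmol/l became 7 without replicate 4 at 10 mmol/l, 8 without replicate 1 at 10 mmol/l or replicate 3 at 30 mmol/l, and 9 without replicate 2 at 10 mmol/l. The 5 lower from 5 to 10 mmol/l became 3 without replicate 1 at 5 mmol/l, replicate 4 at 5 mmol/l or replicate 2 at 10 mmol/l. The 7 lower from 2 to 10 mmol/l became 3 without replicate 4 at 2 mmol/l and 4 without replicate 1 at 10 mmol/l.

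Scaling and block were also changed together, a choice made after seeing the data. Quantile normalization with the replicate block gave 3 higher and 6 lower from 2 to 5 mmol/l, 13 and 8 from 5 to 10 mmol/l, 23 and 1 from 10 to 30 mmol/l, 15 lower from 2 to 10 mmol/l and 7 lower from 2 to 30 mmol/l. In it Psmb2 (-0.02), Psmb4 (-0.03) and Psmd6 (-0.14, adjusted p = 0.0182) were turned from 2 to 30 mmol/l, and Psmb4 (-0.15, adjusted p = 0.0360) from 2 to 10 mmol/l. Median centring with the replicate block gave 3 higher and 2 lower from 2 to 5 mmol/l, 12 higher from 5 to 10 mmol/l, 33 higher from 10 to 30 mmol/l and 18 higher from 2 to 10 mmol/l.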

Other observations

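Markers of other cell types were followed beside the members. Of 8 tested stellate cell and fibroblast genes, 0 were called from 5 to 10, 10 to 30 or 2 to 30 mmol/l, and 1 fell from 2 to 10 mmol/l. With the replicate block, Col1a2, Col3a1 and Lum rose from 5 to 10 mmol/l. Col1a2 (-0.36) and Col3a1 (-0.24) then fell from 10 to 30 mmol/l. From 2 to 10 mmol/l Col1a2, Col3a1, Dcn, Lum and Sparc rose with it and Acta2 fell. From 2 to 30 mmol/l Col3a1 rose and Acta2 fell. The part of these genes in the members' changes was not tested. The summed signal of the 8 genes was 1323.3 to 2451.7 at 2, 1290.6 to 2826.9 at 5, 1468.8 to 3874.5 at 10 and 1360.2 to 3270.3 at 30 mmol/l. Of 5 tested endothelial genes, 1 fell from 5 to 10 mmol/l (Esam, a junction protein, log2 change -0.46, adjusted p = 0.0276 by limma). Of 2 tested duct genes, Krt7, a duct keratin, fell by 0.64 on the log2 scale from 5 to 10 mmol/l, by 0.30 from 10 to 30 mmol/l (adjusted p = 0.0254 by limma) and by 0.84 from 2 to 30 mmol/l. The summed duct signal was 1392 to 1722 at 2 mmol/l and 867.3 to 930.4 at 30 mmol/l, and its part in the changes of the members was not tested. Most of that sum was Krt7 alone, with 1295.4 to 1573.2 at 2 mmol/l and 758.0 to 836.8 at 30 mmol/l. The other tested duct gene, Krt19, was not called in any contrast without the replicate block (adjusted p = 0.170 by the F-test). From 2 to 30 mmol/l Krt19 changed by -0.59 ± 0.27, in the direction of Krt7 (adjusted p = 0.0983 by limma, or 0.0183 with the block).

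Another motif sought in the promoters, TTCNNNGAA, the site of STAT factors, was in 4 of 42 member genes (9.52%) and in 8.87% of all promoters, a share near that of the members.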
